A study of Mus musculus with 6 samples.

Results

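The transcripts of the vascular endothelial growth factor (VEGF) family were followed in whole mouse hearts: the ligand genes Vegfa, Vegfb, Vegfc, Vegfd and Pgf, the receptor genes Flt1, Kdr and Flt4, and the co-receptor genes Nrp1 and Nrp2. These 10 genes were chosen by name, and every array probe whose RefSeq accession belongs to one of them was taken. That gave 13 probes, with 2 probes each for Vegfa, Kdr and Nrp2 and 1 for each other gene, out of 55608 gene probes kept. Of those, 26551 matched a gene symbol and stood for 20128 genes. All 13 probes were bright enough to be tested, among 26068 tested in the whole series.

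Hearts came from C57/B6 mice aged 8 weeks. The KO-labelled group held 3 hearts of genotype PHD2/3f/f; Cre+/-, and the control group 3 hearts of genotype PHD2/3f/f; Cre-/-, so the floxed PHD2 and PHD3 alleles were carried by every mouse and the groups differed by Cre. The labels give neither the driver of the Cre, nor the deleted exons, nor the sex of the mice. The RNA was labelled with Cy3, and 1 array was hybridised per heart. PHD2 and PHD3 are oxygen-sensing enzymes: they hydroxylate the hypoxia-inducible factors (HIF), which are then degraded, and the series title asks how they act through a thyroid hormone receptor on phospholamban.

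VEGF-A is the main growth factor for blood vessels and a textbook HIF target. It signals in endothelial cells mostly through VEGFR-2, the product of Kdr, while VEGFR-1, the product of Flt1, binds it tightly with little signalling and also exists as a soluble form that traps it. VEGF-B and placental growth factor (Pgf) bind VEGFR-1 and not VEGFR-2, and VEGF-B is abundant in cardiac muscle. VEGF-C and VEGF-D are matured by proteases and act through VEGFR-3, the product of Flt4, chiefly in lymphatic vessels, and the neuropilins Nrp1 and Nrp2 serve both VEGFs and class 3 semaphorins.

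In the KO-labelled hearts Vegfb, Pgf and Flt1 were lower and Vegfd and 1 of the 2 probes of Nrp2 were higher, while the probes of Vegfa, Vegfc, Kdr, Flt4 and Nrp1 did not pass the test. The test was limma's moderated test on log2 signals, 2-sided, with p-values adjusted by the Benjamini-Hochberg method over the 26068 probes and a threshold of 0.05. Of the 13 probes 5 passed, 2 higher and 3 lower, which is 38.5%, and the background was 38.2% of all tested probes, with 15.1% higher and 23.1% lower. The groups did not overlap for 7 of the 13 probes, against 55.0% of all tested probes. Over the 13184 named genes, each read by its probe with the highest mean, the corresponding figures were 41.5%, with 19.0% higher and 22.6% lower, and 59.2% without overlap. The share of the family that changed therefore lay near the background, and what follows is about the single genes. The median difference was 0.14 on the log2 scale over the 13 probes and -0.12 over all tested probes.

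The start regions of the 5 genes that passed are shown because these are the genes whose levels differed. Each window is the 300 bases that run from 250 before to 50 after the transcription start in RefSeq (GRCm38.p6), read 5′ to 3′ on the gene's strand, with lower-case bases and the core of the hypoxia response element, ACGTG or GCGTG on either strand, in capitals. For Pgf, which has 2 windows, the first is shown.
Vegfb, chr19:6987602-6987901, minus strand: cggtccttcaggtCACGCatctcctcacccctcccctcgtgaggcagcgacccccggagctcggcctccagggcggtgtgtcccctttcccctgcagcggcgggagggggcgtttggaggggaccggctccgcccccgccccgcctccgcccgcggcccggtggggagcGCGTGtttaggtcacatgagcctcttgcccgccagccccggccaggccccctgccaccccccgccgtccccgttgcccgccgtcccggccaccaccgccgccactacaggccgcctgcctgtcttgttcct
Pgf, chr12:85177264-85177563, minus strand: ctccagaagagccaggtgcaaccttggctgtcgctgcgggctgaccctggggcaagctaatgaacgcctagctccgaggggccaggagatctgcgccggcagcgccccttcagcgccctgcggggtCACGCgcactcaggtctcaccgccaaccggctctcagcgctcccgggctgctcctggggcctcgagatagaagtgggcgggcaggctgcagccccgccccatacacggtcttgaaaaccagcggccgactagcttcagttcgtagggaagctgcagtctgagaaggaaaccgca
Flt1, chr5:147725962-147726261, minus strand: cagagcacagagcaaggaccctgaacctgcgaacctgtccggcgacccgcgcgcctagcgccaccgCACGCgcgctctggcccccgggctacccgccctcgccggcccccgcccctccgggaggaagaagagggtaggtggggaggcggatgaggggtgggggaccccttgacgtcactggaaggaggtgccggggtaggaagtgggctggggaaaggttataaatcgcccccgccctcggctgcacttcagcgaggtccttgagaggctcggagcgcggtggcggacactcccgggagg
Vegfd, chrX:164373272-164373571, plus strand: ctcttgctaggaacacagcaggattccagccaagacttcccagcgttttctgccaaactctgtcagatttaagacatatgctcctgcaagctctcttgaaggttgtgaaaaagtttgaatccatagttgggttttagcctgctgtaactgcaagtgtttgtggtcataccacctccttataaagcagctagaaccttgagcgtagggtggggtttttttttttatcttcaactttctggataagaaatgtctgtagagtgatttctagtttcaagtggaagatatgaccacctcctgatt
Nrp2, chr1:62703067-62703366, plus strand: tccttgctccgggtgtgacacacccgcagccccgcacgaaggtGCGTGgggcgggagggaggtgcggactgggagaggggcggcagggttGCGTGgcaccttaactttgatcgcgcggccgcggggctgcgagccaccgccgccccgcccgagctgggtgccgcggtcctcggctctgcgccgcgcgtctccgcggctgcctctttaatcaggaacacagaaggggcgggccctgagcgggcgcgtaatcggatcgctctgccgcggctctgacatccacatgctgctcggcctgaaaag
The core was present in the windows of Vegfb, Pgf, Flt1 and Nrp2 and absent from that of Vegfd and from the second window of Pgf, which is not shown. In Vegfb it lay 237 and 81 bases before the start, in Pgf 124, in Flt1 184, and in Nrp2 207 and 160 bases before the start. All 10 genes had a window in the RefSeq table, 12 windows in all, and 7 of the 12 held the core, against 43.8% of 32851 promoters of the same length. The windows of Kdr and Nrp1 and the second window of Vegfa also held it, and the first window of Vegfa did not. That second window (chr17:46025114-46025413, minus strand) lies downstream of the first (chr17:46032328-46032627). The estrogen-related receptor element TNAAGGTCA, also searched on both strands, was in 0 of the 12 windows and in 1.28% of all promoters. A match describes the letters only, and genes that were lower, higher or did not pass the test were all among those with a core. The Vegfd window was 42% G and C, against 75.3% in Vegfb and 70.7% in both Flt1 and Nrp2.

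Every level below is the log2 of the background-corrected signal minus the 75th percentile of the array, so that 0 is the brightness below which 75% of the probes lie. Levels are compared between hearts, and the level of 1 probe is not ranked against that of another. Where another probe or a marker mean was subtracted within each heart, the resulting values were also compared between hearts. The 75th percentile was a signal of 147 to 235, between 46.3% and 51.0% of probes lay well above background on each array, and 0 were saturated. Arrays correlated across probes at 0.977 to 0.986 within the KO-labelled group, 0.983 to 0.993 within the control group and 0.921 to 0.970 between the groups, and probes are not independent replicates. The 6 arrays lay on 1 slide with each group in its own column of positions, so that position and group cannot be told apart. With 3 hearts in each group, the precision is limited by their number.

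The targeted genes were checked first. Egln1, which encodes PHD2, had -0.39, 0.29 and 0.06 in the KO-labelled hearts and 1.27, 1.39 and 0.99 in the control hearts, a log2 difference of -1.23 ± 0.21 (SE; limma adjusted p = 0.00651). Egln3, which encodes PHD3 and is itself a HIF target, was higher, by 1.98 ± 0.17 and 1.87 ± 0.13 on its 2 probes (SE; limma adjusted p = 0.00161 and 0.00126). Egln3 thus went against what its label would give. No probe position is given, so a probe outside the deleted part would check nothing, and the groups are called KO-labelled and control throughout. The 2 probes of Egln2, the third enzyme of the family, differed by -0.27 and -0.22 (limma adjusted p = 0.147 and 0.264).

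**Figure D1:**
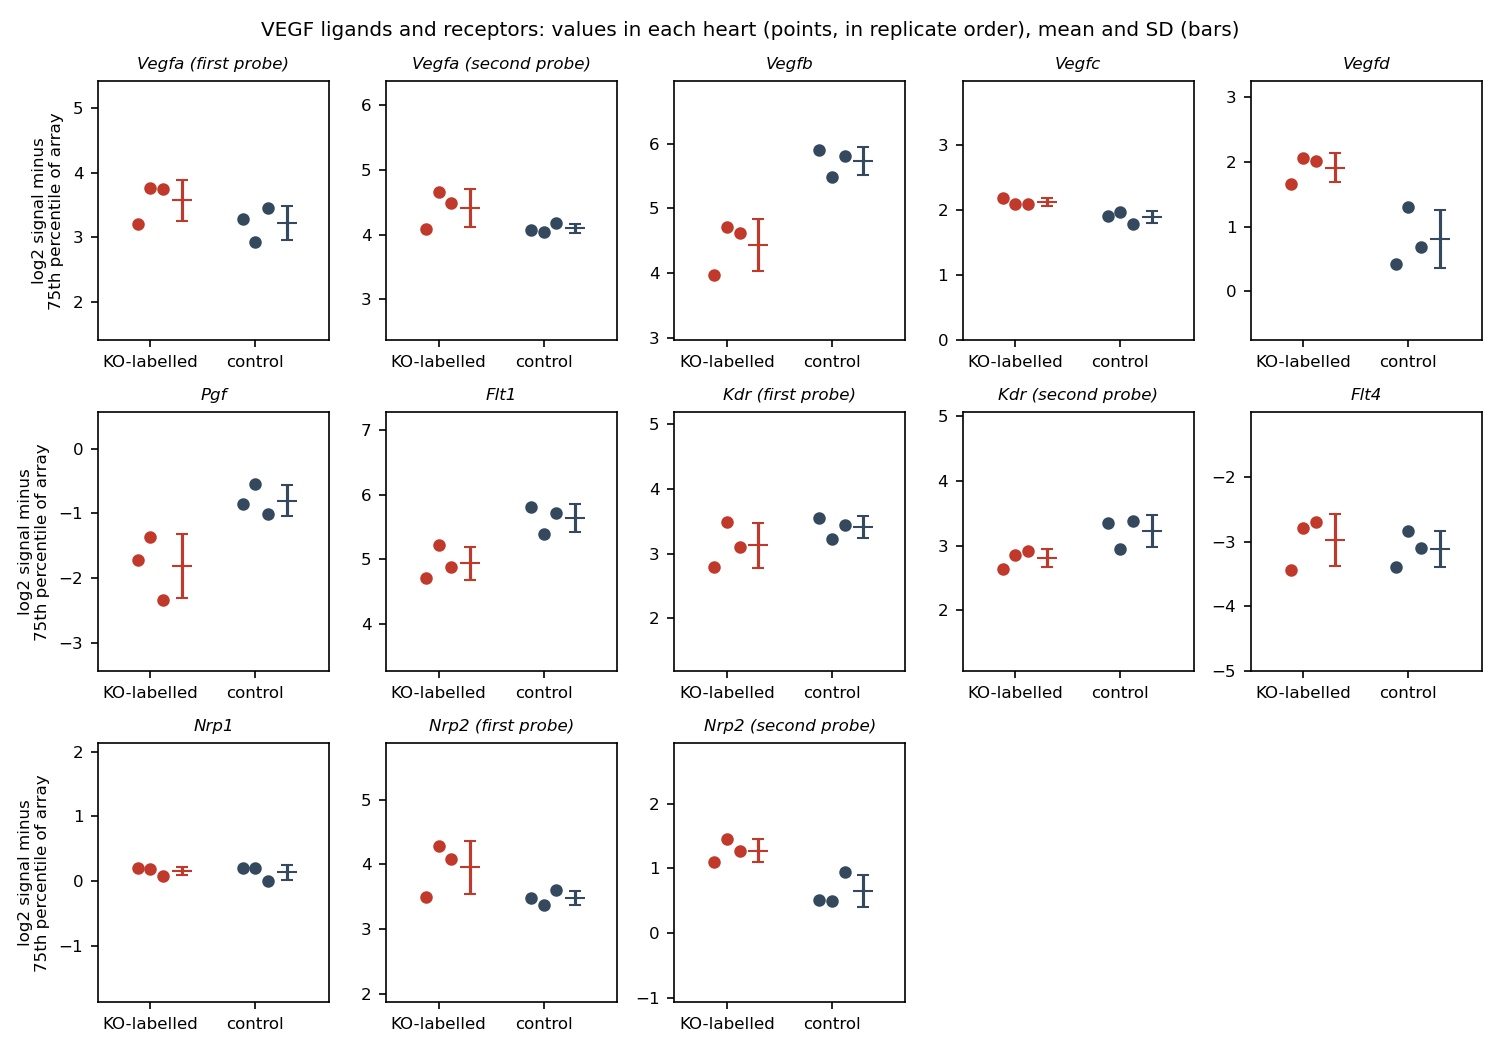
Scaled log2 signal (vertical axis, 75th percentile of the array subtracted) for each of the 13 probes, KO-labelled hearts on the left and control hearts on the right of each panel. Points are single hearts in replicate order, and bars give the mean and SD of 3 hearts. Every panel spans the same range of log2 units. The groups are apart for Vegfb, Vegfc, Vegfd, Pgf, Flt1, the second Kdr probe and the second Nrp2 probe.

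Among the ligands, Vegfa did not pass the test. Its first probe (A_52_P249424, NM_001025257; chromosome 17) had 3.21, 3.76 and 3.74 in the KO-labelled hearts and 3.28, 2.93 and 3.46 in the control hearts. KO-labelled hearts 2 and 3 lay above every control heart and heart 1 lay among them. The difference was 0.35 ± 0.21 on the log2 scale (SE; 95% interval -0.16 to 0.85; limma adjusted p = 0.227). The second probe (A_52_P638895, NM_001025250) has 2 spots on the array and had 4.08, 4.65 and 4.49 in the KO-labelled hearts and 4.07, 4.05 and 4.18 in the control hearts. Again heart 1 of the KO-labelled group lay within the control range and hearts 2 and 3 above it. The difference was 0.31 ± 0.17 (SE; 95% interval -0.10 to 0.72; limma adjusted p = 0.187). The upper ends of these intervals exclude a log2 rise of 1 on either probe. The first probe passed with arrays set level on spike-in RNA (0.59, adjusted p = 0.0362), and the second without KO-labelled replicate 1 (0.47, adjusted p = 0.0442). Both probes passed with array weights (adjusted p = 0.0307 and 0.0134). The changes on the 2 probes differed by 0.04 (exact permutation test over 6 hearts, 2-sided, p = 0.9). The files do not say which splice forms of Vegfa either probe reads.

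Vegfb, the VEGFR-1 ligand of muscle and fat, was lower in the KO-labelled hearts. Its probe (A_52_P436628, NM_011697; chromosome 19) had 3.97, 4.70 and 4.62 in the KO-labelled hearts and 5.89, 5.49 and 5.82 in the control hearts. The highest KO-labelled heart lay below the lowest control heart. The means were 4.43 ± 0.40 and 5.73 ± 0.21 (SD, n = 3 each), a log2 difference of -1.30 ± 0.23 or a 2.46-fold lower signal (SE; 95% interval -1.84 to -0.76; limma adjusted p = 0.00732). It passed under 18 of 18 processing alternatives, with differences of -1.44 to -1.06 and adjusted p-values of at most 0.0356. No other probe of the family did.

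The change in Vegfb was set against that in Vegfa within each heart, with the Vegfa probe of the higher mean. Vegfa minus Vegfb was higher in the KO-labelled hearts than in the control hearts by 1.61 log2 units, and the groups did not overlap. The exact permutation test (2-sided, 3 hearts against 3) gave p = 0.1, the smallest this design allows, so it cannot reach 0.05, and 0.133 after adjustment over the 4 pairs of family genes compared.

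Pgf, the other ligand that binds VEGFR-1 and not VEGFR-2, was lower too. Its probe (A_51_P318381, NM_008827; chromosome 12) had -1.73, -1.37 and -2.34 in the KO-labelled hearts and -0.86, -0.54 and -1.01 in the control hearts. The groups did not overlap, and KO-labelled heart 3 was the lowest of all. The means were -1.81 ± 0.49 and -0.80 ± 0.24 (SD, n = 3 each), a difference of -1.01 ± 0.27 or a 2.01-fold lower signal (SE; 95% interval -1.64 to -0.38; limma adjusted p = 0.0258). The call was lost when any heart other than KO-labelled replicate 2 was left out: adjusted p = 0.0524 without KO-labelled replicate 1, 0.0502 without KO-labelled replicate 3, and 0.0728, 0.065 and 0.0553 without control replicates 1, 2 and 3. It was also lost with spike-in scaling (adjusted p = 0.118) and with no filter on dim probes (adjusted p = 0.0869). With normexp background correction it passed (adjusted p = 0.0154) with a smaller difference of -0.585.

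Of the lymphatic ligands, Vegfc did not pass. Its probe (A_51_P433870, NM_009506; chromosome 8) had 2.19, 2.10 and 2.09 in the KO-labelled hearts and 1.91, 1.97 and 1.78 in the control hearts. Every KO-labelled heart lay above every control heart, but the gap was small. The difference was 0.24 ± 0.12 (SE; 95% interval -0.04 to 0.51; limma adjusted p = 0.142). Vegfc passed only with array weights, at adjusted p = 0.0192.

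Vegfd was the ligand that was higher in the KO-labelled hearts. Its probe (A_51_P117739, NM_010216; chromosome X) is printed at 10 places on the array, and it had 1.65, 2.06 and 2.01 in the KO-labelled hearts and 0.42, 1.30 and 0.68 in the control hearts. The groups did not overlap, and control heart 2 stood closest to the KO-labelled range. The means were 1.91 ± 0.22 and 0.80 ± 0.45 (SD, n = 3 each), a difference of 1.10 ± 0.25 or a 2.15-fold higher signal (SE; 95% interval 0.52 to 1.69; limma adjusted p = 0.0155). Spots of this probe within 1 array had an SD of 0.0383 to 0.0824 log2 units, far less than the spread between hearts of a group. It missed the threshold without control replicate 1 (0.91, adjusted p = 0.0517), without control replicate 3 (1.04, adjusted p = 0.0578) and with no filter on dim probes (adjusted p = 0.0587). Vegfc minus Vegfd was lower in the KO-labelled hearts by 0.87 with no overlap (exact permutation p = 0.1, the smallest possible, adjusted 0.133 over 4 pairs).

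Among the receptors, Flt1 was lower. Its probe (A_51_P398723, NM_010228; chromosome 5) had 4.72, 5.22 and 4.88 in the KO-labelled hearts and 5.80, 5.40 and 5.72 in the control hearts. The groups did not overlap, with KO-labelled heart 2 and control heart 2 nearest to each other. The means were 4.94 ± 0.25 and 5.64 ± 0.21 (SD, n = 3 each), a difference of -0.70 ± 0.18 or a 1.63-fold lower signal (SE; 95% interval -1.13 to -0.27; limma adjusted p = 0.024). The call was lost without KO-labelled replicate 1 (-0.59, adjusted p = 0.0617) or 3 (-0.67, 0.0731), and without control replicate 1 (-0.62, 0.0878) or 3 (-0.66, 0.0827). It was also lost with spike-in scaling (-0.46, adjusted p = 0.0529) and with no filter on dim probes (adjusted p = 0.0968). Whether the probe reads the membrane form, the soluble form or both is not given.

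Kdr, the main signalling receptor, did not pass on either probe. The first (A_51_P316553, NM_010612; chromosome 5; 10 spots) had 2.80, 3.49 and 3.10 in the KO-labelled hearts and 3.56, 3.22 and 3.44 in the control hearts. The groups overlapped, and the difference was -0.27 ± 0.20 (SE; 95% interval -0.75 to 0.20; limma adjusted p = 0.309). The second probe (A_55_P2094469) had 2.65, 2.86 and 2.92 in the KO-labelled hearts and 3.34, 2.94 and 3.38 in the control hearts. Here the groups did not overlap, although KO-labelled heart 3 and control heart 2 nearly met. The difference was -0.41 ± 0.16 (SE; 95% interval -0.80 to -0.02; limma adjusted p = 0.0869). It passed without control replicate 2 (-0.55, adjusted p = 0.0248), with normexp background correction (adjusted p = 0.0345) and with array weights (0.00565), and the first probe passed with array weights (0.0273). The changes on the 2 probes differed by 0.14 (exact permutation p = 0.7). Within each heart, Flt1 minus Kdr was lower in the KO-labelled hearts by 0.43 with no overlap (exact permutation p = 0.1, the smallest possible, adjusted 0.133 over 4 pairs).

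Flt4, the receptor of lymphatic endothelium, did not pass. Its probe (A_51_P179531, NM_008029; chromosome 11) cleared background on 3 KO-labelled arrays and on 2 of the 3 control arrays. It had -3.44, -2.79 and -2.70 in the KO-labelled hearts and -3.40, -2.84 and -3.09 in the control hearts. The ranges overlapped widely. The difference was 0.14 ± 0.24 (SE; limma adjusted p = 0.678), and its sign changed among the alternatives, which gave -0.16 to 0.44. It passed with array weights (0.44, adjusted p = 0.0303).

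The co-receptor Nrp1 did not pass. Its probe (A_51_P469285, NM_008737; chromosome 8) had 0.20, 0.19 and 0.08 in the KO-labelled hearts and 0.20, 0.20 and 0.01 in the control hearts. These values lay in nearly the same range. The difference was 0.02 ± 0.12 (SE; limma adjusted p = 0.898), and the 95% interval of -0.26 to 0.31 excludes a log2 change of 1 in either direction. Nrp1 passed under 0 of 18 alternatives, and its sign changed among them.

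Nrp2 is read by 2 probes, and 1 of them passed. The second probe (A_65_P15245, NM_001077406; chromosome 1) had 1.10, 1.46 and 1.26 in the KO-labelled hearts and 0.51, 0.50 and 0.94 in the control hearts. The groups did not overlap. The difference was 0.62 ± 0.17 or a 1.54-fold higher signal (SE; 95% interval 0.21 to 1.03; limma adjusted p = 0.0307). The call was lost without KO-labelled replicate 2 (0.53, adjusted p = 0.0773) or 3 (0.63, 0.0799), without control replicate 1 (0.55, 0.107) or 2 (0.54, 0.0677), and with no filter on dim probes (adjusted p = 0.121). With 1 probe per gene, that of the higher mean, Nrp2 was read by its first probe and did not pass (adjusted p = 0.129).

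The first Nrp2 probe (A_52_P93910, NM_001077403) had 3.49, 4.28 and 4.08 in the KO-labelled hearts and 3.48, 3.37 and 3.60 in the control hearts. As for Vegfa, KO-labelled heart 1 lay within the control range and hearts 2 and 3 above it. The difference was 0.47 ± 0.22 (SE; limma adjusted p = 0.128). It passed without KO-labelled replicate 1 (0.70, adjusted p = 0.0201), with spike-in scaling (0.71, 0.0374), with normexp background correction (0.0362) and with array weights (0.00598). The 2 accessions are different transcripts of Nrp2, and the changes on the probes differed by -0.15 (exact permutation p = 0.5). Within each heart, Nrp1 minus Nrp2 (by the Nrp2 probe with the higher mean) differed by -0.45 with overlap (exact permutation p = 0.2, adjusted 0.2 over 4 pairs).

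**Figure D2:**
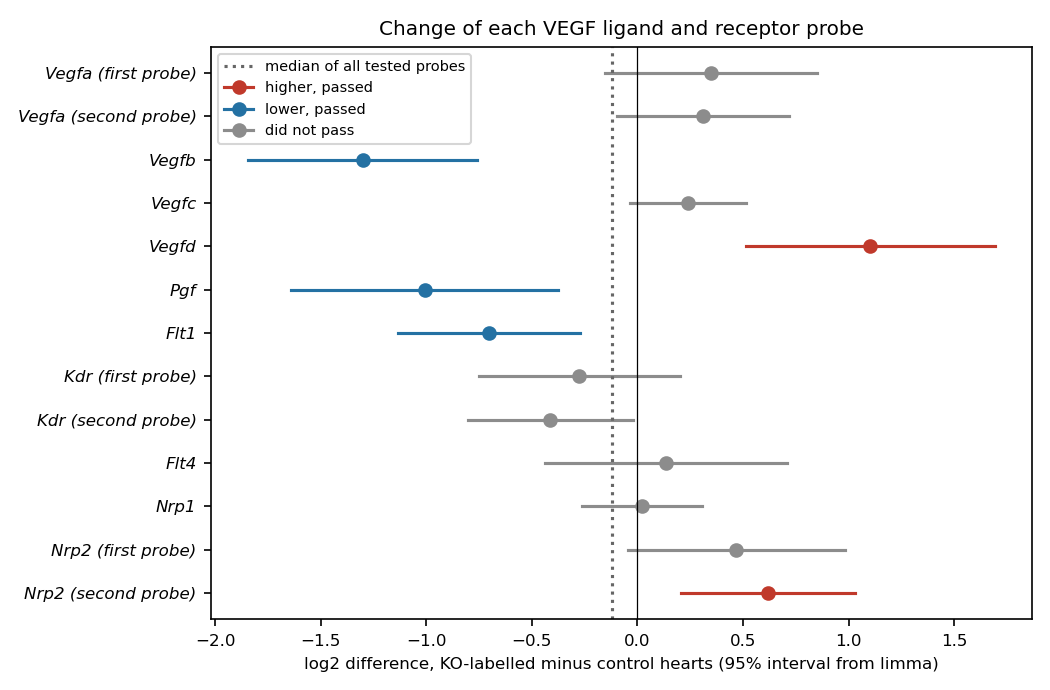
Log2 difference of each probe, KO-labelled minus control hearts (horizontal axis), with the 95% interval from limma, ligands at the top and co-receptors at the bottom. Red marks probes that passed and were higher, blue those that passed and were lower, grey those that did not pass, and the dotted line the median of all tested probes at -0.12. Vegfb at -1.30 and Vegfd at 1.10 lie at the ends.

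In a whole heart, fewer cells of a type and less RNA per cell cannot be told apart. The VEGF receptors are genes of endothelial cells, so the members were set against 30 endothelial markers, all of which were bright enough to be tested. Of these, 3 were higher, 5 were lower and 22 did not pass, with a median difference of -0.10. The defining markers did not pass: Cdh5, the endothelial cadherin, differed by 0.03, Pecam1 by -0.53, Tek by -0.69, Tie1 by -0.33 and Vwf by -0.12 (limma adjusted p = 0.877, 0.0898, 0.0666, 0.175 and 0.68). Those that rose were Ecscr at 0.75, Lyl1 at 0.64 and Cd93 at 0.51. Those that fell were Aqp1, a water channel, at -1.42, Rgcc at -1.21, Ushbp1 at -0.82, Clec14a at -0.80 and Sox17 at -0.69. Leaving out 1 heart ended the calls of Ecscr and Aqp1 for no heart, of Sox17 for control replicate 1 (adjusted p = 0.0553) and of Clec14a for control replicate 3 (0.0524). Ushbp1, Rgcc and Cd93 lost theirs without KO-labelled replicate 3 (0.0534, 0.0684 and 0.0606) and without control replicate 1 (0.0729, 0.0998 and 0.0763) or 3 (0.0698, 0.0969 and 0.0628). Cd93 did so also without KO-labelled replicate 2 (0.0625), and Lyl1 without any heart but KO-labelled replicate 3 (0.0509 to 0.11). Sox17, Clec14a and Ushbp1 also lost theirs with spike-in scaling (0.0607, 0.178 and 0.0564) and Rgcc with quantile and cyclic loess scaling (0.0562 and 0.0536). Of the list genes that were named, here and in the lists below, 32 lost their call with no filter on dim probes, and 30 of these also lost it without 1 heart.

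The mean log2 level of the 30 markers was 3.09, 3.53 and 3.28 in the KO-labelled hearts and 3.49, 3.49 and 3.56 in the control hearts, a difference of -0.21 with overlapping groups (exact permutation p = 0.3). Relative to that mean, heart by heart, Flt1 remained lower in every KO-labelled heart than in every control heart, by 0.49 log2 units (difference -0.49). Kdr differed by -0.06 and -0.20 on its 2 probes, with overlap (exact permutation p = 0.6 and 0.3). Flt4 differed by 0.35 and Nrp1 by 0.24, also with overlap (exact permutation p = 0.2 and 0.3). Nrp2 was higher without overlap on both probes, by 0.68 and 0.83. Among the ligands, Vegfa was higher by 0.56 and 0.52, Vegfc by 0.45 and Vegfd by 1.32, and Vegfb and Pgf were lower, with differences of -1.09 and -0.79, all without overlap. Each probe without overlap, 9 of 13, had the smallest exact p of the design, 0.1, or 0.144 adjusted over the 13 probes, so none reached the threshold. The share of all tested probes without overlap on this scale was not taken, so the count is not a result about the family. Before the markers were subtracted that share was 55.0%.

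Markers of other cell types moved with the groups. Of 16 cardiomyocyte markers, which were all bright enough to be tested, 0 were higher, 12 were lower and 4 did not pass, with a median of -0.74 against -0.07 over all 13184 named genes. Troponin I (Tnni3) fell by 1.57, phospholamban (Pln) by 1.92, Myoz2 by 1.06 and the calcium pump Atp2a2 by 1.48 on the log2 scale (limma adjusted p = 0.00321, 0.00343, 0.00442 and 0.00729). These 4 passed under 18 of 18 processing alternatives. Other calls on the list were less stable, and the least stable held under 8 of 18, with differences of -0.62 to -0.03. The highest difference on the list, 1.80, went the other way and did not pass (limma adjusted p = 0.0983). Over the 16 markers the mean log2 level was 7.97 to 8.41 in the KO-labelled hearts and 8.91 to 9.10 in the control hearts, and the summed signal was 8834 to 11220 and 13420 to 16680 times the 75th percentile. Of 14 fibroblast markers 9 were higher, 1 was lower and 4 did not pass, with a median of 1.15. Postn, a matrix protein of activated fibroblasts, rose by 4.63, Mfap5 by 2.30, Col15a1 by 1.93 (1.19 with normexp) and Thy1 by 1.31, while Gsn fell by 1.66 (limma adjusted p = 0.00261, 0.00253, 0.00126, 0.00392 and 0.0141), and Gsn lost its call without control replicate 1 (0.0512). The fibroblast mean was 5.10 to 5.22 in the KO-labelled hearts and 3.63 to 4.46 in the control hearts, and the summed signal 1419 to 1438 and 829.3 to 1154 times the 75th percentile.

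The members were also set against these markers. Relative to the cardiomyocyte mean, Vegfb was still lower in every KO-labelled heart than in every control heart, by 0.53 log2 units (difference -0.53; exact permutation p = 0.1, adjusted 0.134 over 39 such comparisons). On the same scale Flt1 differed by 0.07 and Pgf by -0.24, both with overlap (exact permutation p = 0.6 and 0.7). Every other probe of the family was higher without overlap on this scale (exact permutation p = 0.1 each). Among them were Vegfa at 1.12 and 1.08, Nrp2 at 1.24 and 1.39 and Kdr at 0.49 and 0.36. The cardiomyocyte mean itself differed by -0.77, so subtracting it raises a probe that did not change. Nrp1, at 0.02 before, was at 0.79 on this scale. The share of all tested probes without overlap on this scale was not taken, so these values are not a result about the family. Relative to the fibroblast mean, Vegfd had -3.44, -3.13 and -3.21 in the KO-labelled hearts and -3.21, -3.15 and -3.05 in the control hearts. These values overlapped and differed by -0.12 (exact permutation p = 0.4), against 1.10 before the markers were subtracted. Every other probe was lower relative to the fibroblast mean, with differences from -0.61 (second Nrp2 probe) to -2.53 (Vegfb), and Flt1 at -1.93. The groups overlapped for the first Vegfa probe and both Nrp2 probes (exact permutation p = 0.3, 0.2 and 0.2) and were apart for the rest. The fibroblast mean itself differed by 1.23, so subtracting it lowers a probe that did not change. No share over all tested probes was taken on this scale either. These 2 marker lists were added after the data had been seen, and the part of cell makeup in the results was not tested.

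**Figure D3:**
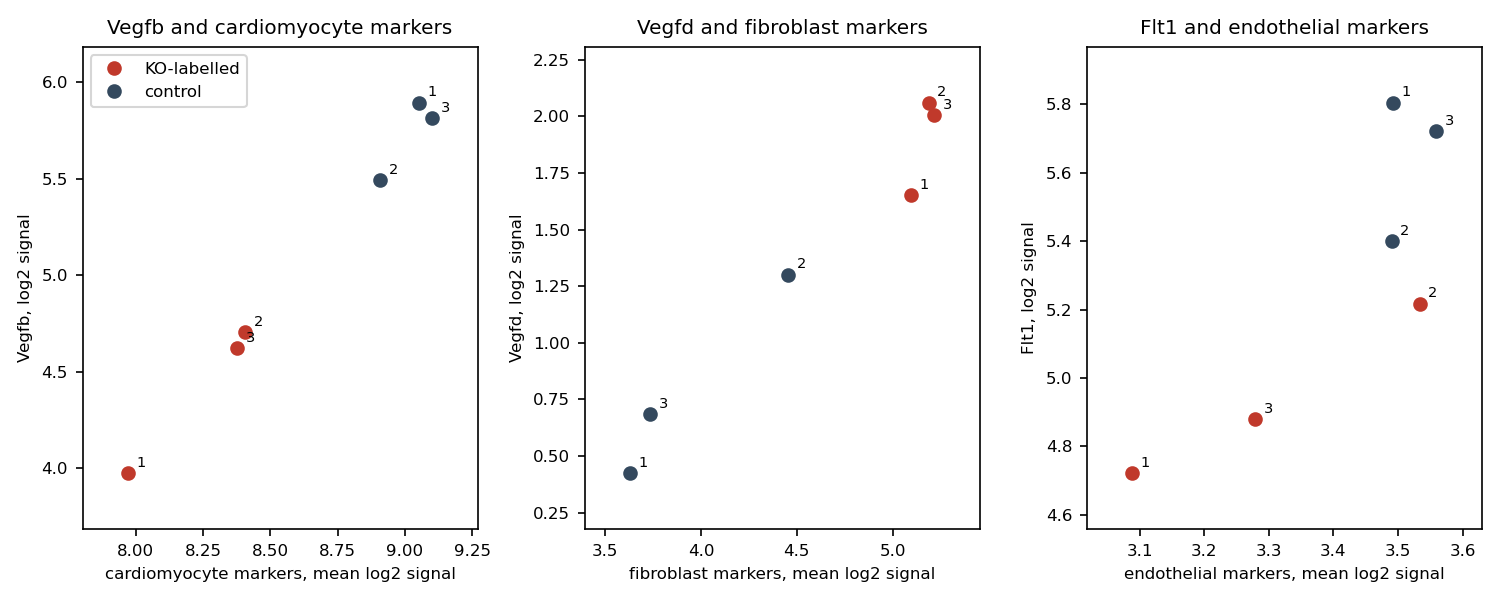
Scaled log2 signal of Vegfb, Vegfd and Flt1 (vertical axes) against the mean log2 signal of cardiomyocyte, fibroblast and endothelial markers (horizontal axes). Each point is 1 heart, numbered by replicate, red for KO-labelled and dark blue for control. Vegfb and the cardiomyocyte markers are both lowest in KO-labelled heart 1, Vegfd and the fibroblast markers are both lowest in control heart 1, and the endothelial mean of KO-labelled heart 2 lies within the control range while its Flt1 does not.

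Of 11 macrophage markers 8 were higher, 1 was lower and 2 did not pass, with a median of 1.12. Cx3cr1 rose by 2.67, Adgre1 by 1.88 and C1qc by 1.12 (limma adjusted p = 0.00364, 0.00633 and 0.0129). Ccr2, well above background on 1 of 3 control arrays, passed the brightness filter through the KO-labelled arrays where it was high. Its difference was 2.73 (limma adjusted p = 0.00531) and 1.19 with normexp background correction. C1qc lost its call with no filter on dim probes (0.0513). Cd163 fell by 0.95 (limma adjusted p = 0.0235), a call lost without KO-labelled replicate 1 (0.0622) or 3 (0.0709) or control replicate 3 (0.0595), or with cyclic loess or spike-in scaling (0.0657 and 0.15), and its difference was -0.52 with normexp. The macrophage mean was 2.50 to 3.38 in the KO-labelled hearts and 1.30 to 2.09 in the control hearts, and the summed signal 178.3 to 300.3 and 90.33 to 143.2 times the 75th percentile.

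Of 14 pericyte and smooth muscle markers 4 were higher, 5 were lower and 5 did not pass. Cnn1, Tagln, Des and Cspg4 rose, by 3.06, 1.42, 1.05 and 0.92, and Abcc9, Vtn, Kcnj8, Rgs5 and Myh11 fell, by 1.91, 1.46, 1.40, 0.75 and 0.75 on the log2 scale (limma adjusted p from 0.00233 to 0.0384). Without control replicate 1 or 3, Des (adjusted p = 0.0595 and 0.0632) and Rgs5 (0.071 and 0.0648) lost their calls, and Myh11 lost its call without any heart but KO-labelled replicate 2 (0.0587 to 0.111). Spike-in scaling also ended the calls of Rgs5 (0.0599) and Myh11 (0.178), and cyclic loess that of Myh11 (0.0699). The mean of the 14 markers was 3.15 to 3.27 in the KO-labelled hearts and 3.20 to 3.28 in the control hearts. Which heart cells gave the signals of Des, Abcc9 and the other markers was not tested. Of the 7 lymphocyte and neutrophil markers 1 passed, Cd3d, which was well above background on 1 of 3 control arrays and entered the test through the KO-labelled arrays where it was high. Its difference was 3.37 (limma adjusted p = 0.0404), but 1.20 with normexp background correction (0.116) and 1.98 in the deposited values (0.0955), where it did not pass, and trend and robust variances also ended the call (0.0579). It lost its call without KO-labelled replicate 2 (0.0531) or 3 (0.055) or control replicate 1 (0.122) or 3 (0.0972). Among the Schwann cell and neuron markers Th fell by 0.79 and Ngfr rose by 1.19 (limma adjusted p = 0.0071 and 0.0439). Ngfr lost its call without any heart but KO-labelled replicate 3 and control replicate 3 (0.0913 to 0.132), and with normexp (0.52, 0.0711) or array weights (0.57, 0.16). Of 7 blood and platelet, 4 adipocyte and 6 mesothelial markers 0 passed, but adipocyte means ran from -1.53 to 4.31 in the KO-labelled hearts, the highest in heart 2, and from -1.80 to 2.37 in the control hearts, the highest in heart 3. Mesothelial means ran from 0.20 to 0.90 in the KO-labelled hearts and from -0.85 to 2.04 in the control hearts, the highest in heart 2.

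The lymphatic setting of Vegfc, Vegfd and Flt4 was described by 6 tested markers of lymphatic endothelium, of which 1 rose, 2 fell and 3 did not pass. Prox1, the transcription factor that sets lymphatic identity, fell by 1.24 and Lyve1, a hyaluronan receptor of lymphatic vessels and some macrophages, by 1.18 (limma adjusted p = 0.00485 and 0.0469). Which heart cells gave the Prox1 signal was not tested. Pdpn, which activated fibroblasts also make, rose by 1.54 (limma adjusted p = 0.0356). Lyve1 passed without KO-labelled replicate 1 or 2, the first with a difference of -0.74, and lost its call without each other heart (adjusted p from 0.0804 to 0.134). Pdpn lost its call without KO-labelled replicate 1 (0.0923) or 3 (0.0879) or control replicate 1 (0.109) or 3 (0.112). With spike-in scaling Lyve1 and Pdpn lost their calls (0.0926 and 0.0537), and Lyve1 did so with quantile and cyclic loess scaling (0.0532 and 0.0718). The mean level of the 6 markers was 0.45 to 0.87 in the KO-labelled hearts and 0.42 to 1.02 in the control hearts.

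The proteins that mature VEGF-C and VEGF-D were listed as 7 genes, of which 6 could be tested, and 2 rose, 1 fell and 3 did not pass. Ccbe1, the cofactor for cleavage of VEGF-C, fell by 1.56 (limma adjusted p = 0.0423). Adamts14, a protease close to the VEGF-C cleaving enzyme Adamts3, rose by 1.10, and the proprotein convertase Pcsk5 by 0.56 (limma adjusted p = 0.0172 and 0.0333). Ccbe1 kept its call without KO-labelled replicate 1 (-0.96, adjusted p = 0.0108) or 2. It lost its call without each other heart (0.0577 to 0.116) and with cyclic loess or spike-in scaling (0.0597 and 0.0672). With normexp its difference was -1.0. Adamts14 lost its call without KO-labelled replicate 3 (0.0547) or control replicate 1 (0.0643) or 3 (0.0624), and Pcsk5 without KO-labelled replicate 1 (0.0834) or 2 (0.0838) or control replicate 1 (0.116) or 3 (0.102).

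The signalling genes downstream of the receptors split by direction. Of 31 tested, 6 were higher, 7 were lower and 18 did not pass, a share of called genes close to the 41.5% of all named genes. Protein kinase C beta (Prkcb) rose by 1.36, phospholipase C gamma 2 (Plcg2) by 1.16 and the adaptor Shc1 by 0.70 (limma adjusted p = 0.00323, 0.00393 and 0.00603). Phospholipase C gamma 1 (Plcg1), the isoform that binds active VEGFR-2, fell by 0.86 (limma adjusted p = 0.00379), and its difference was -0.49 with normexp background correction. Prkcb and Plcg2 are also genes of blood cells. Macrophage markers were higher as given above, and their part in the values of Prkcb and Plcg2 was not tested.

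Of 13 receptor partners and brakes 7 were higher, 1 was lower and 5 did not pass, with a median of 0.59. The phosphatase Ptprj rose by 0.93, the integrin subunit Itgav by 0.93, the endocytic adaptor Dab2 by 0.90 and the membrane protease Adam10 by 0.63 (limma adjusted p = 0.00723, 0.00709, 0.0162 and 0.00883). Ptprb, the endothelial phosphatase that restrains VEGFR-2 and Tie2, fell by 0.67 (limma adjusted p = 0.0268). Dab2 lost its call without control replicate 1 (0.0626) or 3 (0.0591), and Ptprb without KO-labelled replicate 1 (0.0628) or 3 (0.078) or control replicate 1 (0.0936) or 3 (0.0892) or with quantile, cyclic loess or spike-in scaling (0.0606, 0.0579 and 0.0802). Adam10 lost its call with no filter on dim probes (0.0604), and the difference of Itgav was 0.48 with normexp. Ptprj, Itgav, Dab2 and Adam10 are not restricted to endothelium.

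The semaphorins and plexins compete with VEGF for neuropilins or carry the semaphorin signal, and of 10 tested 3 were higher, 1 was lower and 6 did not pass. Sema3f, a ligand of Nrp2, had 2.82-fold higher signal, a difference of 1.50 ± 0.18 (SE; limma adjusted p = 0.0032). Sema3g fell by 0.88 (limma adjusted p = 0.006), with a difference of -0.50 under normexp background correction. Plxna3 and Sema3d were well above background on 1 and 2 of the 3 control arrays and entered the test through the KO-labelled arrays where they were high. Their differences were 1.61 and 1.28 (limma adjusted p = 0.0212 and 0.0464), but 0.24 and 0.47 with normexp (0.0862 and 0.0275), where Plxna3 did not pass. Sema3d was at 0.79 in the deposited values and at 0.84 without control replicate 1, and lost its call with quantile, median and spike-in scaling (0.0581, 0.0577 and 0.0637). Plxna3 lost its call without KO-labelled replicate 1 (0.0589) or 3 (0.0631) or control replicate 3 (0.0583), and Sema3d without any heart but control replicate 2 (0.0685 to 0.119).

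The Notch genes that share out tip and stalk roles in sprouting vessels also went both ways. Of 11 tested, 3 were higher, 2 were lower and 6 did not pass. Nrarp rose by 1.11, Lfng by 1.02 and Heyl by 0.93, while Notch1 fell by 2.11 and Hey1 by 0.66 (limma adjusted p = 0.0161, 0.00375, 0.00793, 0.00704 and 0.0201). Nrarp lost its call with normexp background correction, where its difference was 0.21 (0.31), and without control replicate 1 (0.0502) or 3 (0.051), and Hey1 without KO-labelled replicate 3 (0.0584) or control replicate 1 (0.0608) or 3 (0.0509) or with cyclic loess or spike-in scaling (0.0506 and 0.186). With normexp the difference of Lfng was 0.55.

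Genes known to be induced by VEGF in endothelial cells were tested as 15 genes, of which 6 were higher, 1 was lower and 8 did not pass, with a median of 0.88. Esm1, which encodes endocan and marks endothelial tip cells, had a mean of 1.24 ± 0.03 in the KO-labelled hearts and -0.87 ± 0.17 in the control hearts (SD, n = 3 each), a 4.32-fold higher signal (limma adjusted p = 0.00126). The early response factor Egr2 rose by 2.95 and the chemokine receptor Cxcr4 by 1.30, while F3, which encodes tissue factor, fell by 1.37 (limma adjusted p = 0.00517, 0.00211 and 0.0107). With normexp background correction the differences of Egr2 and Cxcr4 were smaller, 1.95 and 0.46, and both passed. These genes respond to other signals and are made by other cells as well, Cxcr4 and Egr2 by leukocytes among them, and the part of the macrophage markers in these values was not tested.

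Regulators of VEGF transcripts were tested as 13 genes, of which 2 were higher, 3 were lower and 8 did not pass. Ppargc1a, the coactivator of mitochondrial genes that can also raise VEGF transcripts, had a mean of 2.41 ± 0.44 in the KO-labelled hearts and 4.25 ± 0.25 in the control hearts (SD, n = 3 each), a 3.59-fold lower signal (limma adjusted p = 0.00396). Its partner Esrra, the estrogen-related receptor alpha, fell by 0.79, and Epas1, which encodes HIF-2 alpha, by 1.11 (limma adjusted p = 0.0202 and 0.0164). The RNA-binding proteins Zfp36l2 and Zfp36l1, which speed the decay of Vegfa and other transcripts, rose by 0.79 and 0.48 (limma adjusted p = 0.00466 and 0.0181). Epas1 lost its call without control replicate 1 (0.0626) or 3 (0.0566), Esrra without those (0.0757 and 0.0744) or KO-labelled replicate 1 (0.0544), and Zfp36l1 without those (0.0769 and 0.0518) or KO-labelled replicate 3 (0.067). With spike-in scaling the difference of Zfp36l1 was 0.73.

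The platelet-derived growth factors, the ligand family nearest to VEGF, were tested as 7 genes, of which 2 were higher, 2 were lower and 3 did not pass. Pdgfrl, a receptor-like gene, rose by 2.07 (limma adjusted p = 0.00442). Pdgfc rose by 0.95 and Pdgfd and Pdgfa fell by 0.63 and 0.41 (limma adjusted p = 0.0445, 0.031 and 0.0473). Pdgfc lost its call without KO-labelled replicate 1 or 3 or control replicate 1 or 3 (0.0957 to 0.139), Pdgfd without any heart but KO-labelled replicate 2 (0.0552 to 0.106), and Pdgfa without any heart but KO-labelled replicate 1 (0.0501 to 0.157). Scaling ended calls as well, that of Pdgfa under all 4 other scalings (0.0634 to 0.501), that of Pdgfc under quantile, median and spike-in scaling (0.0515, 0.059 and 0.0677) and that of Pdgfd under cyclic loess and spike-in scaling (0.0614 and 0.175). The difference of Pdgfd was -0.41 with normexp.

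**Figure D4:**
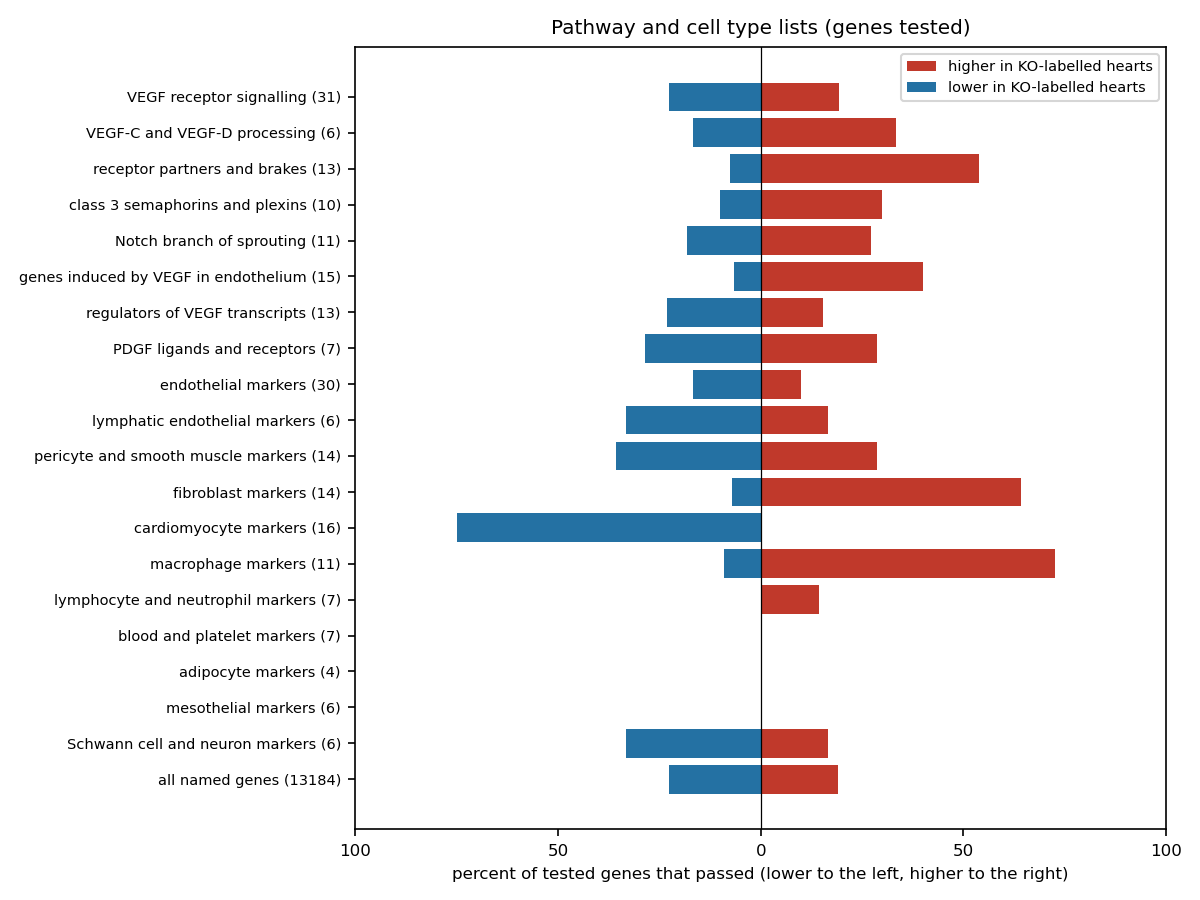
Percent of the tested genes of each list that passed, higher in KO-labelled hearts to the right (red) and lower to the left (blue), with the number of tested genes in brackets and all 13184 named genes in the bottom row. Cardiomyocyte markers lie to the left only, and fibroblast and macrophage markers mostly to the right.

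The genes most like Vegfa, Vegfb and Kdr were found by Pearson correlation of log2 signal over the 6 arrays, among 13184 named genes with 1 probe each. The points share the arrays and their scaling and fall into 2 groups, so the values only describe a shared pattern. For Vegfa the closest were Nrp2 (0.9973), Kctd12b (0.9913) and Pitpnm1 (0.9907). For Vegfb they were Pdk2, a kinase of pyruvate dehydrogenase (0.9996), Magix (0.9996) and Ogfod3 (0.9994), which were lower in the KO-labelled hearts by 1.44, 2.07 and 0.53 log2 units (differences of -1.44, -2.07 and -0.53; limma adjusted p = 0.00642, 0.00652 and 0.0231). For Kdr they were Bcl11a (0.9955), Rapgef3 (0.9899) and N4bp2 (0.9896), none of which passed.

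**Figure D5:**
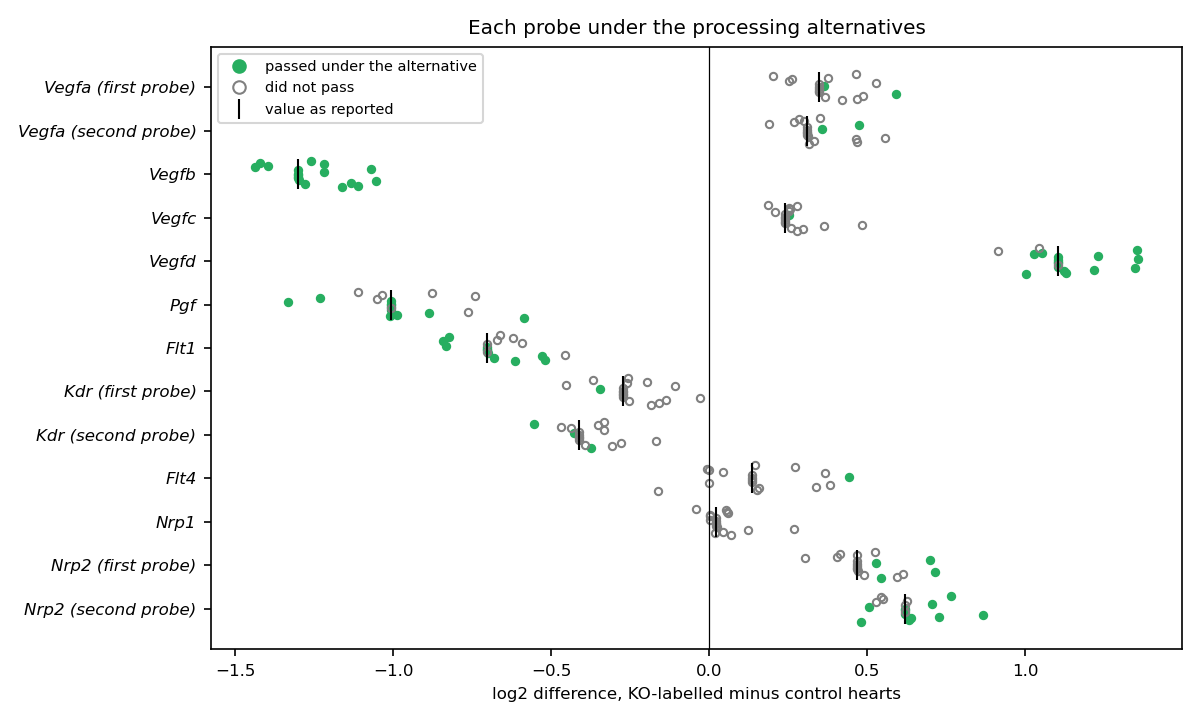
Log2 difference of each probe, KO-labelled minus control hearts, under every processing alternative that gave it a value. Filled green points passed at an adjusted p of 0.05, open points did not, and the black mark is the value reported above. All points of Vegfb are filled and lie between -1.44 and -1.06, while Flt4 and Nrp1 have points on both sides of 0.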

How the data were processed

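Cy3-labelled RNA of 6 hearts was measured on 1-colour Agilent arrays. The labels describe the RNA preparation in 2 ways, by columns from hearts and by a kit for blood that also removes globin transcripts. The deposited intensity values and flags come, per the file headers, from Agilent Feature Extraction 11.0.1.1. The authors' deposited log2 values served as an alternative. The submitters' processing notes name R 3.1.3 as well, and no source used here gives the normalization of those values.

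Here, outlier-flagged spots were left out (73 of 55681 probes were lost), repeated spots averaged, log2 of the processed signal taken and each array's 75th percentile subtracted. Probes well above background on all 3 arrays of at least 1 group were tested with limma 3.58.1 in R 4.3.3 with the data.table package, version 1.17.8, a linear model with moderated variances and no covariates, 2-sided, with Benjamini-Hochberg adjustment at 0.05, a procedure tested on simulated data. A fold is 2 to the power of the log2 difference. Accessions were matched to RefSeq genes, which left 29057 probes unnamed, and a list gene was read by its brightest tested probe. Of 254 list genes 251 had a probe. Exact permutation tests compared levels relative to marker means.

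The members and lists were chosen with earlier results of these data known. The genes named were all members, Egln1, Egln2, Egln3, the defining endothelial and lymphatic markers, the 3 genes most like Vegfa, Vegfb and Kdr, and from each list the 4 called genes with the smallest p plus all called genes of a direction with 5 or fewer, except 1 that is not reported here. The labels call the replicates biological. Alternatives were normexp (offset 50, on the median signal), 4 other scalings, the deposited values, other filters, 1 probe per gene, another variance model, array weights, the replicate block and leaving out each heart. A slide block was not run because there was 1 slide.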

Additional observations from a re-analysis of the deposited data

How the results depend on the processing

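Of the 13 probes 5 passed in the analysis as reported, against 1 with no filter on dim probes and 12 with array weights. The 9949 probes that passed in the whole series became 4646 and 17167 under the same settings, and the 104 list genes became 47 with no filter. With the replicate number as a block, 3 member probes, 6207 probes and 65 list genes passed, and Flt1 and the second Nrp2 probe did not (adjusted p = 0.0784 and 0.0652). Numbers did not pair the hearts: same-numbered hearts correlated at -0.16, -0.13 and -0.07 in their deviations from the group means. Each KO-labelled heart correlated above 0 with 1 control heart of another number. These were KO-labelled 1 with control 2 (0.232), 2 with control 3 (0.205) and 3 with control 1 (0.241). Deviations from a group mean sum to 0 over its 3 hearts, so some value above 0 is forced for each heart. Such values therefore cannot show a pairing, and a block on those pairs was not run. Leaving out 1 heart gave 1 to 5 member probes, 4999 to 10871 probes and 53 to 111 list genes. The lowest counts of member probes were 1 without control replicate 1 and 2 without control replicate 3 or KO-labelled replicate 3, where 4999, 5244 and 6600 probes passed in the series and 55, 53 and 68 list genes. The number of member probes apart from the controls relative to endothelial markers was 9 and stayed at 7 to 11, and it was 11 and 9 with cardiomyocyte and fibroblast markers in their place. No share over all tested probes was taken beside these counts. Scaling moved the balance: 39.6% of the probes that passed were higher in the analysis as reported, 54% with cyclic loess and 59.4% with 7 E1A spike-in probes, and the median of all probes was -0.12, 0.01 and 0.12. Of 72 list genes that were named and passed, 39 passed under every alternative. The causes were not tested. Signal over background limits Flt4, Plxna3, Sema3d, Ccr2 and Cd3d, which were not well above background on every control array.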
